A study of Homo sapiens with 9 samples.

Results

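The gene group described here is asparagine synthetase (ASNS) with 9 amino acid transporter subunits: SLC7A5, SLC3A2, SLC7A11, SLC7A1, SLC38A1, SLC38A2, SLC1A4, SLC1A5 and SLC6A9. The 10 genes were chosen by symbol, through a table that pairs Ensembl identifiers with symbols, out of 41041 genes measured. Of these 10 genes, 9 were among the 12662 genes tested, and SLC7A11 was too low for the expression filter. Poly(A) RNA was sequenced from SW480, an established human colorectal cancer cell line, and all 9 libraries came from cells kept for 48 h at 1% oxygen. In 3 libraries the cells had received a combination (SFN+5-FU) of sulforaphane, the isothiocyanate of broccoli and related plants, with 5-fluorouracil, a pyrimidine analogue used against colorectal cancer. In 3 libraries they had received sulforaphane alone (SFN) at 25 µM, and in 3 they were hypoxic without either agent (control). Treatment lasted 48 h. The protocol text calls the combined treatment "sulforaphiluracil" and adds SFN and 5-FU in brackets. The sources used here give no dose of either agent for that group. Cells in normal oxygen and cells on 5-FU alone were not analysed here, so the share of 5-FU in the combined treatment cannot be told apart from its combination with SFN.

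Asparagine synthetase makes asparagine from aspartate, with glutamine as the nitrogen donor. In the amino acid response, kinases that sense amino acid shortage or other stress phosphorylate the translation factor eIF2α, translation of the transcription factor ATF4 goes up, and ATF4 binds C/EBP-ATF response elements at genes such as ASNS and several transporters. SLC3A2 encodes the heavy chain CD98hc, which brings light chains to the plasma membrane. With SLC7A5 (LAT1) it imports large neutral amino acids such as leucine, and with SLC7A11 (xCT) it exchanges cystine for glutamate. SLC1A5 (ASCT2) and SLC1A4 (ASCT1) are sodium-dependent exchangers of small neutral amino acids, and SLC1A5 is known as a glutamine carrier of cancer cells. SLC38A1 and SLC38A2 (SNAT1 and SNAT2) import glutamine and alanine, SLC7A1 (CAT1) imports arginine and lysine, and SLC6A9 (GlyT1) imports glycine.

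Promoter windows were read for 9 of the 10 genes from RefSeq (GRCh38.p14), each from 250 bases before to 50 bases after an annotated start, with 16 windows in all since some genes have several starts. The letters searched on both strands were TGATGNAA for a C/EBP-ATF response element, TGACNNNGC for the antioxidant response element bound by NRF2, and CACGTG for an E-box. Over all 35116 promoter windows, 3.62% held the first, 13.3% the second and 7.26% the third. A match describes the letters and does not show binding. The 4 windows shown are those of ASNS, a textbook case of a promoter with a response element, of SLC1A4, whose mRNA had the same order of groups, and of SLC7A5 and SLC3A2, the light and heavy chain whose mRNAs moved in opposite directions with SFN+5-FU. Capitals mark the matches. The ASNS window is chr7:97872359-97872658 on the minus strand, with TGATGAAA at bases -68 to -61 from the start. The SLC1A4 window is chr2:64989149-64989448 on the plus strand, with TTGCATCA, the reverse complement of the response element letters, at bases -7 to 1. The SLC7A5 window is chr16:87869458-87869757 on the minus strand, with the E-box at bases -130 to -125 and TGACGCAGC at bases -2 to 7. The SLC3A2 window is chr11:62881449-62881748 on the plus strand, with TGACTCAGC at bases -37 to -29 and TTACATCA, a response element match on the other strand, at bases 38 to 45. No matches overlapped in these windows. ASNS, SLC1A4 and SLC3A2 have other listed starts, whose windows held no match, so the windows shown are those with matches.
ASNS: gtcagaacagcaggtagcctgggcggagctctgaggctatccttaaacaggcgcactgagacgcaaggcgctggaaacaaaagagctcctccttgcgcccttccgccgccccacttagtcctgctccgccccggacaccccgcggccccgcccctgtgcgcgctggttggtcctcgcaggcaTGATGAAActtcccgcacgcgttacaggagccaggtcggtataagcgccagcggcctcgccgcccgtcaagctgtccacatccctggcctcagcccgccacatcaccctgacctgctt
SLC1A4: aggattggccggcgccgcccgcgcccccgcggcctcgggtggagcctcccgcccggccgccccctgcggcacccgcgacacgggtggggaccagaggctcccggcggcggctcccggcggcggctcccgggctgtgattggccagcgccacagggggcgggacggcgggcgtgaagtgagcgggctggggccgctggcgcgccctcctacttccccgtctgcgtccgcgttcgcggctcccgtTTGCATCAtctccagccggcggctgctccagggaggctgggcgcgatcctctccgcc
SLC7A5: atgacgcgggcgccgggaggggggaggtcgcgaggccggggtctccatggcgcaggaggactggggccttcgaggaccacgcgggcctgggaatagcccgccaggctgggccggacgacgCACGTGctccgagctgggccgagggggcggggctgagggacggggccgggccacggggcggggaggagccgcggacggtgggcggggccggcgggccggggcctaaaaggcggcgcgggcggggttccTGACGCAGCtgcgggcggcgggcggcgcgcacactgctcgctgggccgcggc
SLC3A2: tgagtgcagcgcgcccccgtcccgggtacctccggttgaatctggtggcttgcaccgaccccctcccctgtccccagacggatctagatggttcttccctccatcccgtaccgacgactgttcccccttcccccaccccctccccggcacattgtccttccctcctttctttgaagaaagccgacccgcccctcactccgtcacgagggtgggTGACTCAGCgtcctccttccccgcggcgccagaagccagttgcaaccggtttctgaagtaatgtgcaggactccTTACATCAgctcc
Of the other genes, SLC7A1 and SLC38A1 held TGATGAAA in a window, at bases 8 to 15 and at bases -4 to 4. SLC7A1 also held TGACGCGGC at bases -85 to -77. SLC1A5 held TGATGCAA at bases -97 to -90 of 1 of its listed starts, and an antioxidant response element match (GCGAGGTCA on the other strand, bases -111 to -103) and an E-box (bases -50 to -45) at another. The letters searched were not in the windows of SLC38A2 and SLC6A9. In all, 6 genes held a response element match, 4 an antioxidant response element match and 2 an E-box. By window, the unit of the percentages above, the counts were 6, 4 and 2 of 16.

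Levels are in FPKM, which divides fragment counts by transcript length and library size and can be compared between genes. FPKM summed to between 259184 and 272235 in a library, and the number of fragments behind it is unknown. Fold changes are log2 differences of FPKM + 1 from 1 limma fit over all 9 libraries, which understates the change of low genes. A gene is said to rise or fall at a Benjamini-Hochberg adjusted p under 0.05 over all tested genes. Counts at an unadjusted p under 0.05 have no share over all tested genes beside them and only describe the lists. The same holds for counts of SFN+5-FU against control in the fit without SFN replicate 2. The labels call the samples biological replicates without naming separate cultures, so p-values measure the spread between these libraries. In bulk RNA, fewer cells of a type and less RNA per cell cannot be told apart. The 8 epithelial markers checked, among them EPCAM, KRT8 and CDX2, were all detected. KRT20 was near the floor and too low for the filter. It averaged 0.207 ± 0.254 FPKM with SFN+5-FU, 0.667 ± 0.653 FPKM with SFN and 0.857 ± 0.463 FPKM in control. Of the 7 tested, 6 fell with SFN+5-FU, where 28% of all tested genes were called lower. With SFN 4 fell, where 22.5% of all tested genes were called lower. Without SFN replicate 2 the SFN count was 3, beside 26.9%. CDH1 was at 0.365 and VIL1 at 0.212 times control with SFN+5-FU. The 8 had summed levels of 1707 to 1722 FPKM with SFN+5-FU, 1768 to 2383 FPKM with SFN and 2552 to 2596 FPKM in control. The 9 markers of leukocytes, endothelium and fibroblasts summed to 9.57 to 12.8 FPKM with SFN+5-FU, 4.30 to 9.63 FPKM with SFN and 5.28 to 6.39 FPKM in control, and the leukocyte marker PTPRC was at 0 in every library. Of the 3 tested, CD68, a lysosomal protein used as a macrophage marker, averaged 7.49 ± 1.73 FPKM with SFN+5-FU, 3.95 ± 1.78 FPKM with SFN and 0.563 ± 0.0723 FPKM in control, and rose in both comparisons with control (limma adjusted p = 6.38e-05 and 0.000932). COL1A1, a collagen gene, fell in both, to 0.411 times control with SFN+5-FU and 0.348 times with SFN (adjusted p = 0.000120 and 0.000111). CD68 passed the filter through the treated libraries and COL1A1 through control, so each had to be higher there. The part of these differences in the results was not tested.

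The library labelled SFN replicate 2 did not lie with its group. Across tested genes its Pearson correlation on log2(FPKM + 1) was 0.993 with each SFN+5-FU library, and 0.963 and 0.968 with SFN replicates 1 and 3, which correlated at 0.990 with each other. For 10 of the 10 genes described here it was nearer to the SFN+5-FU mean than to the mean of SFN replicates 1 and 3. The share over all tested genes was not counted. For SLC7A1 the log2 distances to these means were 0.00012 and 0.0096, and for SLC7A11 0.094 and 0.115, so those genes hardly separate them. It is kept in its labelled group. A wrong label and a true difference cannot be told apart in these files, and a wrong label would change every SFN value that includes the library. Most counts and named calls for SFN are therefore also given without it.

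**Figure D1:**
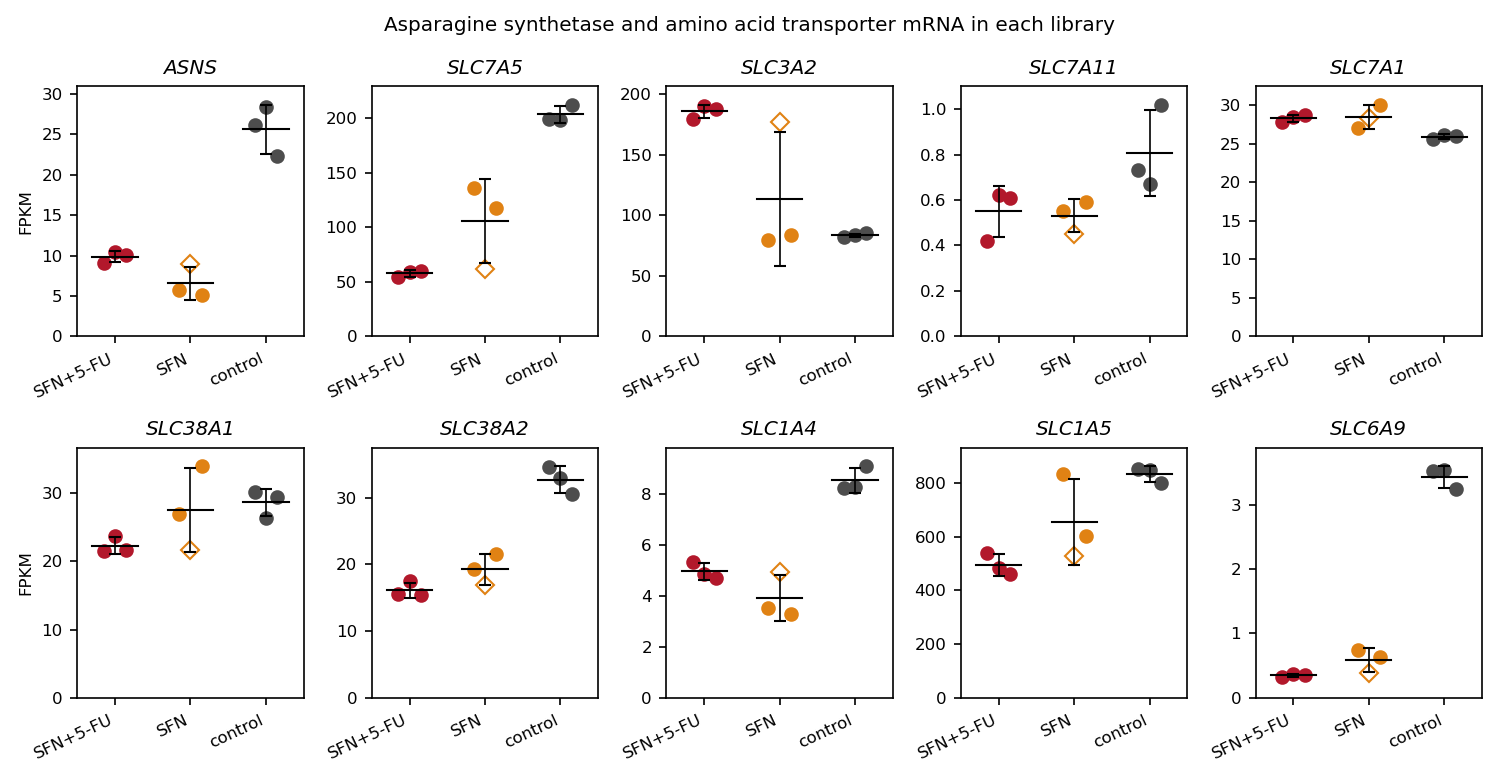
FPKM of the 10 genes in each library (y axis from 0, one panel per gene) for SFN+5-FU, SFN and control; points are libraries, the open diamond is SFN replicate 2, and bars are the mean ± SD of 3 libraries. ASNS, SLC7A5, SLC38A2, SLC1A4 and SLC6A9 were lower in every library of both treated groups than in every control library, and SLC3A2 was high in the SFN+5-FU libraries and in SFN replicate 2.

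The level of the 10 genes spanned a wide range. In control, SLC1A5 was highest at 835 ± 29.4 FPKM (mean ± SD, n = 3, as for all group means below), rank 26 of all genes measured. SLC7A5 was next with rank 123, then SLC3A2 with rank 340, and SLC38A2, SLC38A1, SLC7A1 and ASNS followed between 25.6 and 32.7 FPKM. SLC7A1 and ASNS, neighbours in that order, overlapped between libraries. SLC1A4, SLC6A9 and SLC7A11 were lowest. With SFN+5-FU the order differed: SLC3A2 stood above SLC7A5, the order of SLC7A1, SLC38A1 and SLC38A2 was turned round, with SLC7A1 highest, and SLC7A11 stood above SLC6A9. With SFN, the ranges of SLC3A2 and SLC7A5, of SLC7A1 and SLC38A1, and of SLC6A9 and SLC7A11 overlapped.

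ASNS mRNA was lowest with SFN and lower with SFN+5-FU than in control. It was 9.08, 10.46 and 10.09 FPKM in SFN+5-FU replicates 1 to 3, 5.70, 8.91 and 5.12 FPKM in SFN replicates 1 to 3, and 26.13, 28.44 and 22.37 FPKM in control replicates 1 to 3. No 2 groups overlapped, and SFN replicate 2 was the highest of the SFN libraries. With SFN+5-FU, ASNS was 0.385 times its control level, a log2 fold change of -1.29 (SE 0.167, limma adjusted p = 0.000184). With SFN it was 0.256 times the control level, a log2 fold change of -1.84 (SE 0.167, adjusted p = 5.56e-05), and -2.05 without SFN replicate 2 (adjusted p = 4.47e-06). The 2 differences from control share the control libraries. The difference between SFN+5-FU and SFN was 0.55 (95% interval 0.17 to 0.93, adjusted p = 0.134), and 0.76 without SFN replicate 2 (adjusted p = 0.000357). A transcript annotated within ASNS on the same strand (AC079781.5, ENSG00000284707) was at 1.54 to 5.09 FPKM, so reads could be split between both.

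SLC1A4, the neutral amino acid exchanger ASCT1, had the same order of groups as ASNS. It was 5.34, 4.84 and 4.70 FPKM with SFN+5-FU, 3.53, 4.95 and 3.29 FPKM with SFN, and 8.24, 8.27 and 9.09 FPKM in control. Every treated library was below every control library, and SFN replicate 2 lay within the SFN+5-FU range. SLC1A4 fell by 0.68 on the log2 scale with SFN+5-FU (SE 0.119, limma adjusted p = 0.000962) and by 0.97 with SFN (adjusted p = 0.000246), or by 1.11 without SFN replicate 2 (adjusted p = 1.10e-05). Without SFN replicate 2, SFN+5-FU stood 0.43 above SFN (adjusted p = 0.00121), against 0.29 with it (adjusted p = 0.143).

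SLC1A5, the glutamine carrier ASCT2, fell with SFN+5-FU and was uneven among the SFN libraries. It was 539.46, 483.15 and 463.24 FPKM with SFN+5-FU, 834.11, 528.63 and 602.80 FPKM with SFN, and 852.75, 850.43 and 800.68 FPKM in control. SFN replicate 1 lay within the control range, SFN replicate 2 lay within the SFN+5-FU range, and SFN replicate 3 lay between the 2 ranges. The log2 fold change was -0.75 for SFN+5-FU against control (SE 0.145, limma adjusted p = 0.00156). For SFN against control it was -0.38 (adjusted p = 0.0558), -0.56 without SFN replicate 1 (adjusted p = 0.00110) and -0.23 without SFN replicate 2 (adjusted p = 0.131).

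SLC38A2 and SLC38A1 lie next to each other on chromosome 12, and of the 2 SLC38A2 was called in both comparisons with control. SLC38A2 was 15.49, 17.42 and 15.33 FPKM with SFN+5-FU, 19.27, 16.93 and 21.51 FPKM with SFN, and 34.62, 32.86 and 30.57 FPKM in control. All 6 treated libraries were below the controls, and the treated groups overlapped through SFN replicate 2. It fell by 0.98 with SFN+5-FU (SE 0.0941, limma adjusted p = 4.13e-05) and by 0.74 with SFN (adjusted p = 0.000290), or by 0.66 without SFN replicate 2 (adjusted p = 0.000162).

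SLC38A1 was 21.50, 23.72 and 21.72 FPKM with SFN+5-FU, 26.94, 21.64 and 33.99 FPKM with SFN, and 30.15, 26.40 and 29.51 FPKM in control. The SFN+5-FU libraries were below the controls, while the SFN libraries spread below, within and above them. Its log2 fold change was -0.35 for SFN+5-FU against control (SE 0.138, limma adjusted p = 0.0485). That call was lost in 11 of 21 alternatives, 7 of them leaving out a single library (SFN replicate 1, or any SFN+5-FU or control library), with adjusted p up to 0.130. For SFN against control it was -0.078 (adjusted p = 0.658), and 0.077 without SFN replicate 2 (adjusted p = 0.527).

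SLC7A1, the arginine and lysine importer CAT1, was close to level in all groups. It was 27.82, 28.39 and 28.72 FPKM with SFN+5-FU, 27.03, 28.31 and 30.06 FPKM with SFN, and 25.60, 26.13 and 26.01 FPKM in control. Every treated library was above every control library, by little. The log2 difference from control was 0.12 with SFN+5-FU (95% interval -0.0066 to 0.25, limma adjusted p = 0.0848, and 0.0419 without SFN replicate 2). With SFN it was 0.13 (adjusted p = 0.0877, 0.0603 without SFN replicate 2 and 0.0446 without SFN replicate 1). Its sign for SFN+5-FU turned to -0.064 with quantile normalization (adjusted p = 0.363), while the GC and length correction gave 0.35 with SFN+5-FU (adjusted p = 0.00111) and 0.30 with SFN (adjusted p = 0.00417). No direction is given for it.

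SLC6A9, the glycine importer GlyT1, was low in control and lower still with treatment. It was 0.32, 0.37 and 0.35 FPKM with SFN+5-FU, 0.75, 0.38 and 0.63 FPKM with SFN, and 3.52, 3.54 and 3.24 FPKM in control. All 6 treated libraries were far below the controls, and SFN replicate 2 was the lowest of the SFN libraries. The ratio of means was 0.101 for SFN+5-FU over control and 0.171 for SFN over control. The log2 fold changes on FPKM + 1 were -1.72 (SE 0.0954, limma adjusted p = 5.32e-06) and -1.49 (adjusted p = 1.49e-05), or -1.39 for SFN without replicate 2. SLC6A9 passed the filter through its control libraries, so it had to be higher there. CCDC24, annotated on the opposite strand over SLC6A9, was at 2.82 to 4.49 FPKM, and whether the authors counted by strand is not stated.

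SLC7A11, the cystine and glutamate exchanger xCT and a well known NRF2 target, was barely detected in these cells. It was 0.42, 0.62 and 0.61 FPKM with SFN+5-FU, 0.55, 0.45 and 0.59 FPKM with SFN, and 0.73, 0.67 and 1.02 FPKM in control. The treated libraries were all below the controls and overlapped each other. In an alternative fit with no filter its log2 difference from control was -0.22 with SFN+5-FU and -0.24 with SFN (limma adjusted p = 0.159 in both). The ratio of means was 0.682 for SFN+5-FU over control and 0.657 for SFN over control, or 0.707 without SFN replicate 2.

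The 2 subunits of the leucine importer moved in opposite directions with SFN+5-FU. SLC7A5, the light chain, was 54.44, 58.63 and 60.33 FPKM with SFN+5-FU, 136.47, 62.15 and 117.66 FPKM with SFN, and 199.70, 198.68 and 212.60 FPKM in control. No 2 groups overlapped, and SFN replicate 2 lay just above the SFN+5-FU libraries. SLC7A5 fell by 1.80 on the log2 scale with SFN+5-FU (SE 0.234, limma adjusted p = 0.000185), to 0.284 times its control level. It fell by 1.02 with SFN (adjusted p = 0.00621), and by 0.68 without SFN replicate 2 (adjusted p = 9.27e-05). Its 2 pseudogenes in the table, SLC7A5P1 and SLC7A5P2, reached 0.22 and 1.01 FPKM at most.

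SLC3A2, the heavy chain, was 179.37, 190.02 and 187.69 FPKM with SFN+5-FU, 79.28, 177.03 and 83.90 FPKM with SFN, and 82.20, 83.50 and 84.84 FPKM in control. The SFN+5-FU libraries and SFN replicate 2 were high, while the other SFN libraries lay near the controls. SLC3A2 rose by 1.14 with SFN+5-FU (SE 0.249, limma adjusted p = 0.00309), to 2.22 times its control level. With SFN the difference was 0.34 (adjusted p = 0.286), and -0.034 without SFN replicate 2 (adjusted p = 0.566). SFN+5-FU stood 1.18 above SFN without that library (adjusted p = 5.30e-06), against 0.81 with it (adjusted p = 0.134).

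The ratio of SLC7A5 to SLC3A2 FPKM put both changes into 1 value. It was 0.304, 0.309 and 0.321 with SFN+5-FU, 1.72, 0.351 and 1.40 with SFN, and 2.43, 2.38 and 2.51 in control. The groups did not overlap, and the control libraries held more light chain than heavy chain mRNA while the SFN+5-FU libraries held less. The mean log2 ratio differed from control by -2.97 with SFN+5-FU and by -1.37 with SFN. Each exact two-sided permutation test over 3 against 3 libraries gave p = 0.1, the smallest that design allows. Without SFN replicate 2 the difference of SFN from control was -0.65, and without SFN replicate 1 it was -1.80.

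**Figure D2:**
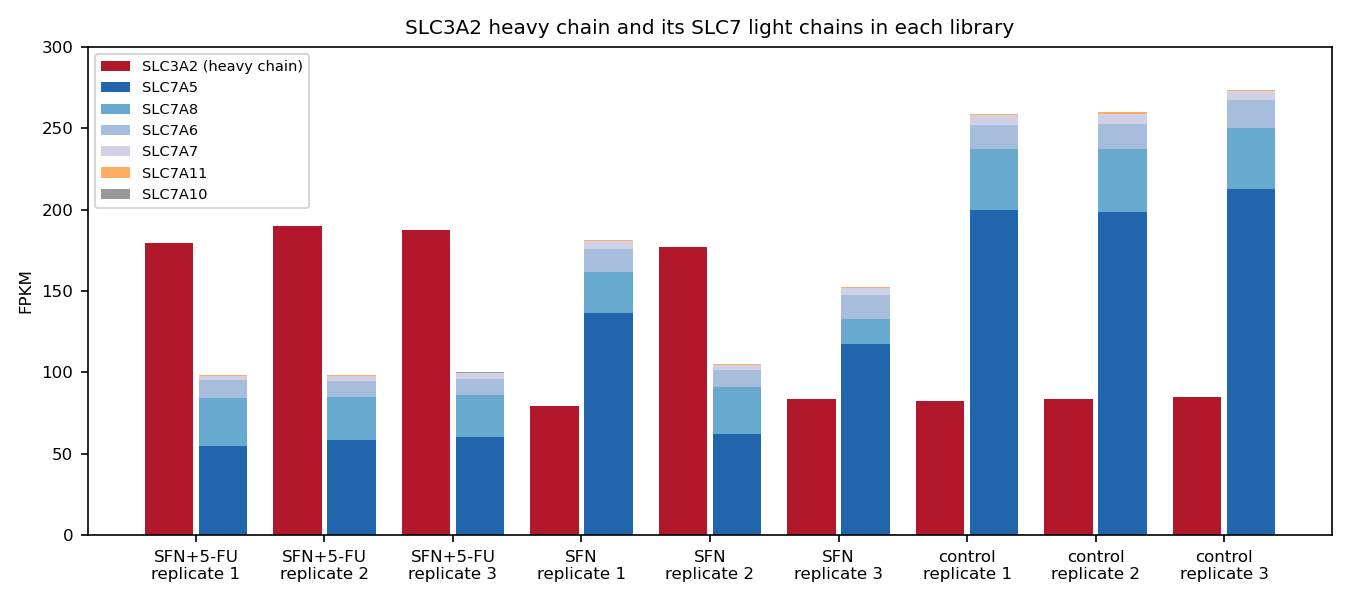
SLC3A2 FPKM (red bars) beside the stacked FPKM of its 6 SLC7 light chain partners (other colours) in each of the 9 libraries, from 0. The light chains stood above SLC3A2 in control and in SFN replicates 1 and 3, and below it in the SFN+5-FU libraries and SFN replicate 2.

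SLC3A2 also pairs with other light chains, and the 6 counted here were SLC7A5, SLC7A6, SLC7A7, SLC7A8, SLC7A10 and SLC7A11. Their summed level was 98.5, 98.3 and 99.9 FPKM with SFN+5-FU, 181, 105 and 152 FPKM with SFN, and 259, 260 and 274 FPKM in control. The sum over SLC3A2 was 0.549, 0.517 and 0.532 with SFN+5-FU, 2.28, 0.592 and 1.82 with SFN, and 3.15, 3.11 and 3.23 in control. SLC7A5 made up 55.3 to 60.4% of the light chain FPKM with SFN+5-FU, 59.3 to 77.2% with SFN and 76.4 to 77.7% in control. The remaining light chains thus held a larger part in the SFN+5-FU libraries and SFN replicate 2.

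Of the 6 partners, 4 were tested and 4 fell with SFN+5-FU, where 66.2% of all tested genes were called, 38.3% higher and 28% lower. SLC7A6, the neutral and cationic amino acid exchanger y+LAT2, was 11.01, 9.72 and 10.28 FPKM with SFN+5-FU, 14.16, 10.27 and 14.44 FPKM with SFN, and 14.49, 15.09 and 17.49 FPKM in control, and it fell with SFN+5-FU by 0.56 (limma adjusted p = 0.00376). SLC7A7, the related y+LAT1, fell by 0.81 with SFN+5-FU (adjusted p = 0.000366) and by 0.48 with SFN (adjusted p = 0.00888), or by 0.36 without SFN replicate 2 (adjusted p = 0.00906). SLC7A8, the other system L light chain LAT2, averaged 27.2 ± 2.32 FPKM with SFN+5-FU and 37.9 ± 0.648 FPKM in control, a fold change of -0.47 whose limma adjusted p of 0.04998 lies at the threshold. That call was lost without SFN replicate 1 and without any 1 of the SFN+5-FU or control libraries. Of all tested genes 50% were called with SFN, 27.5% higher and 22.5% lower. Of the 4 partners 3 fell with SFN. Without SFN replicate 2, where 26.9% of all tested genes were called lower, 3 of the 4 fell too. SLC7A8 was among them, at 23.2 ± 6.99 FPKM with SFN, a fall of 0.73 (adjusted p = 0.0101), and of 0.90 without SFN replicate 2 (adjusted p = 0.00157). Between SFN+5-FU and SFN 0 of the 4 passed the limma threshold, with 0 higher and 3 lower at an unadjusted p under 0.05.

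Counted together, 7 of the 9 tested genes of the group fell and 1, SLC3A2, rose with SFN+5-FU against control, beside the 28% and 38.3% of all tested genes. The median log2 fold change was -0.75 for the 9 genes and 0.097 for all tested genes. With SFN against control 5 of 9 fell and 0 rose by limma, and at an unadjusted p under 0.05 the counts were 6 and 0. The median was -0.74, and 0.053 for all tested genes. Without SFN replicate 2 the same counts were 5 and 0, where 26.9% of all tested genes were called lower and 30% higher. SLC6A9, which passed the filter through control, is 1 of the genes that fell in both counts, and these counts are a description of the group.

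**Figure D3:**
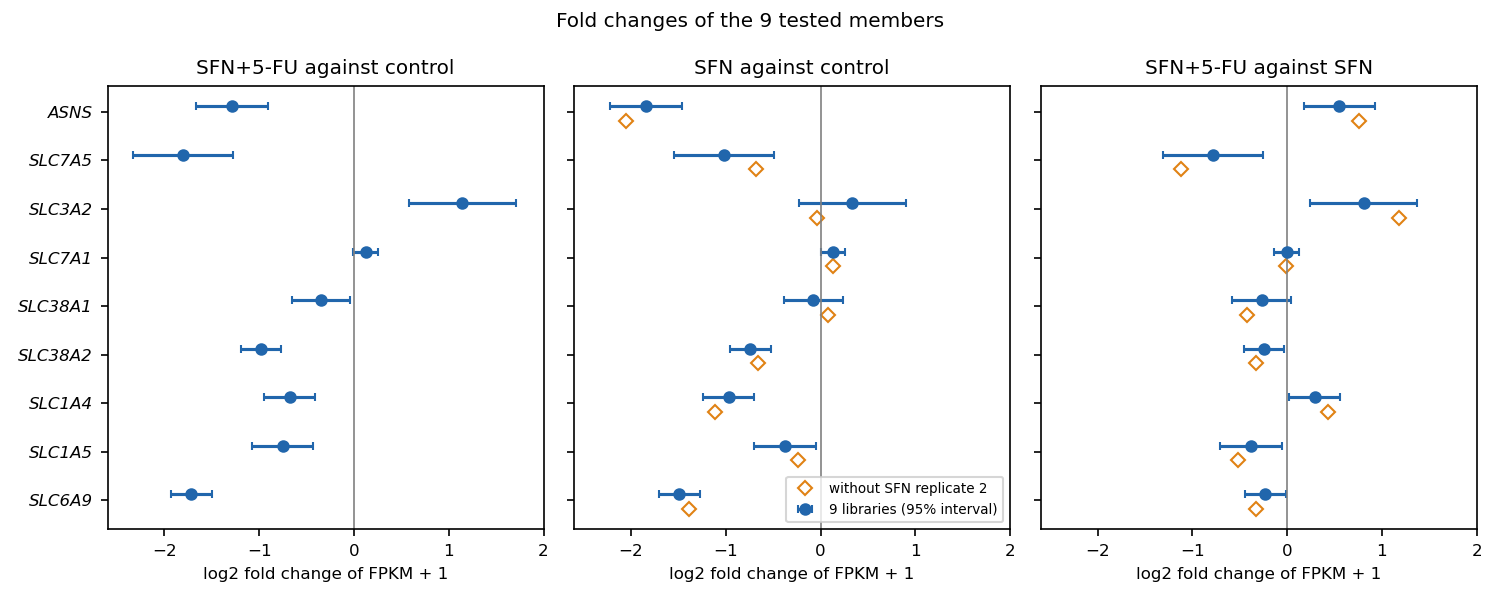
Log2 fold change of FPKM + 1 (x axis) of the 9 tested genes (rows) in 3 comparisons, with the 95% interval of the limma fit over 9 libraries (filled circles) and the value without SFN replicate 2 (open diamonds, in the comparisons that use SFN). SLC3A2 stands to the right of 0 with SFN+5-FU against control at 1.14, while SLC7A5 stands farthest left at -1.80.

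Between SFN+5-FU and SFN, 0 of the 9 genes passed the limma threshold, and at an unadjusted p under 0.05 SFN+5-FU was higher for 3 and lower for 4. Over all tested genes 0.0079% were called by adjusted p, which is 1 gene (ENSG00000260342, named after its value was seen). Their share at an unadjusted p under 0.05 was not counted, so the 3 and 4 have no background. Without SFN replicate 2, 3 of the 9 genes were higher with SFN+5-FU (ASNS, SLC1A4 and SLC3A2) and 5 were lower (SLC7A5, SLC38A1, SLC38A2, SLC1A5 and SLC6A9), where 29.8% of all tested genes were called higher and 21.4% lower. SLC7A5 then differed by -1.12 (adjusted p = 1.78e-05), SLC1A5 by -0.52 (0.00715), SLC38A1 by -0.42 (0.00662), SLC6A9 by -0.33 (0.00571) and SLC38A2 by -0.32 (0.00792). Leaving out any other single library gave 0 of 9.

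Against control, the mRNA of ATF4 itself did not follow ASNS. ATF4 was 154.03, 163.87 and 173.50 FPKM with SFN+5-FU, 71.99, 155.33 and 86.99 FPKM with SFN, and 136.38, 134.57 and 133.48 FPKM in control. The SFN+5-FU libraries and SFN replicate 2 lay above the controls, and SFN replicates 1 and 3 lay below them. The log2 difference from control was 0.28 with SFN+5-FU (limma adjusted p = 0.299, and 0.00619 without SFN replicate 2). With SFN it was -0.44 (adjusted p = 0.132), and -0.76 without SFN replicate 2 (adjusted p = 8.50e-05). Between the treated groups, ATF4 stood 0.72 higher with SFN+5-FU than with SFN (limma adjusted p = 0.134). Without SFN replicate 2 it stood 1.04 higher (adjusted p = 3.16e-05). ASNS also stood higher with SFN+5-FU than with SFN. Relative to control, ASNS was thus low in libraries with high and with low ATF4 mRNA. ATF4 protein, which is set mainly by translation, was not measured.

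The ATF4 pathway list, ATF4 included, held genes that rose and genes that fell. Of 17 tested, 6 rose and 6 fell with SFN+5-FU, beside 38.3% higher and 28% lower of all tested genes, with a median log2 fold change of -0.019. With SFN 3 rose and 6 fell, beside 27.5% and 22.5% of all tested genes, with a median of -0.13. The counts without SFN replicate 2 were 8 and 7 with SFN+5-FU, which have no share beside them. With SFN they were 3 and 8, beside 30% and 26.9% of all tested genes. ATF3, a stress-induced transcription factor, was 19.57, 21.91 and 19.50 FPKM with SFN+5-FU, 4.15, 19.09 and 5.77 FPKM with SFN, and 5.09, 4.85 and 4.54 FPKM in control. It rose by 1.87 with SFN+5-FU (limma adjusted p = 0.00285), while for SFN against control the difference was 0.61 (adjusted p = 0.232), 0.020 without SFN replicate 2 (adjusted p = 0.890) and 1.00 without SFN replicate 1 (adjusted p = 0.0450). PPP1R15A, which directs the dephosphorylation of eIF2α, averaged 161 ± 14.3 FPKM with SFN+5-FU, 96.5 ± 49.0 FPKM with SFN and 47.9 ± 1.103 FPKM in control. PPP1R15A rose by 1.72 with SFN+5-FU (limma adjusted p = 0.000581). With SFN it rose by 0.88 (adjusted p = 0.0256), or by 0.50 without SFN replicate 2 (adjusted p = 0.00859).

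ATF5, a transcription factor of the same stress response, rose in both comparisons with control, by 1.64 with SFN+5-FU (limma adjusted p = 2.76e-05) and by 1.29 with SFN (adjusted p = 0.000153), or by 1.15 without SFN replicate 2. TRIB3, a pseudokinase known as an ATF4 target, fell in both. It was 13.99, 15.34 and 16.13 FPKM with SFN+5-FU, 16.70, 16.31 and 15.70 FPKM with SFN, and 40.66, 39.13 and 40.05 FPKM in control. The treated libraries lay close together, SFN replicate 2 included. TRIB3 fell by 1.34 with SFN+5-FU (adjusted p = 3.07e-06) and by 1.25 with SFN (adjusted p = 7.05e-06), also without SFN replicate 2 (adjusted p = 5.02e-06). Of genes known as ATF4 targets, ASNS, TRIB3 and SLC7A5 fell, while ATF3 and SLC3A2 rose with SFN+5-FU. These are examples and not a count of targets, and the list also holds kinases of eIF2α. Its other genes that fell with SFN+5-FU were CEBPB, CHAC1, EIF2AK1, EIF2AK4 and VLDLR. The others that rose were ATF5, DDIT3, EIF2S1, PPP1R15A and PPP1R15B. Between SFN+5-FU and SFN 0 of the 17 passed the limma threshold, with 6 higher and 2 lower at an unadjusted p under 0.05. By adjusted p without SFN replicate 2, 9 were higher and 2 lower, beside 29.8% and 21.4% of all tested genes.

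**Figure D4:**
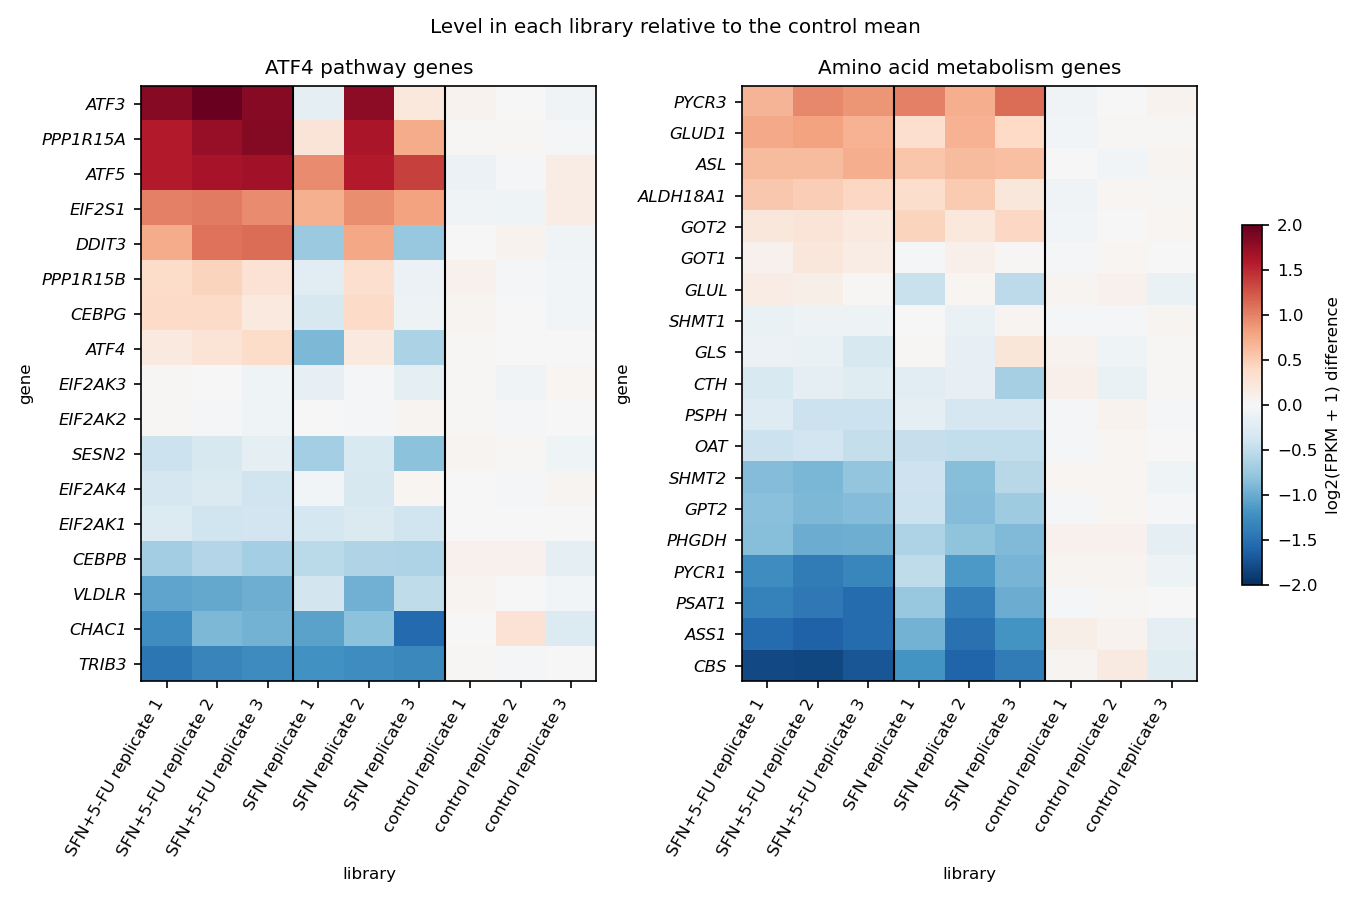
Difference of log2(FPKM + 1) from the control mean (colour, red above and blue below) for genes of the ATF4 pathway (left) and of amino acid metabolism (right) in each of the 9 libraries. ATF3, PPP1R15A and DDIT3 are red in the SFN+5-FU libraries and SFN replicate 2, while TRIB3, CBS and ASS1 are blue in every treated library.

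Of 20 tested genes of amino acid synthesis and interconversion, 6 rose and 9 fell with SFN+5-FU (median -0.22), beside 38.3% and 28% of all tested genes. With SFN 6 rose and 9 fell (median -0.30), beside 27.5% and 22.5%. In the fit that leaves out SFN replicate 2, 7 rose and 9 fell with SFN+5-FU. With SFN 6 rose and 11 fell in that fit, beside 30% and 26.9% of all tested genes. CBS, which joins homocysteine and serine, averaged 1.16 ± 0.0889 FPKM with SFN+5-FU, 1.83 ± 0.411 FPKM with SFN and 6.47 ± 1.12 FPKM in control. It fell by 1.78 with SFN+5-FU (limma adjusted p = 1.49e-05) and by 1.40 with SFN (adjusted p = 6.97e-05), or by 1.30 without SFN replicate 2. ASS1, which uses aspartate to make the precursor of arginine, averaged 20.1 ± 0.651 FPKM with SFN+5-FU, 26.3 ± 5.01 FPKM with SFN and 61.7 ± 7.11 FPKM in control. It fell by 1.57 with SFN+5-FU (adjusted p = 2.18e-05) and by 1.21 with SFN (adjusted p = 0.000131), or by 1.07 without SFN replicate 2. ALDH18A1, an enzyme of proline synthesis, and GLUD1, the glutamate dehydrogenase, were among those that rose in each comparison with control.

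Between SFN+5-FU and SFN 0 of the 20 synthesis genes passed the limma threshold, with 2 higher and 5 lower at an unadjusted p under 0.05. By adjusted p without SFN replicate 2, 5 were higher and 9 lower, beside 29.8% and 21.4% of all tested genes. GOT2, the mitochondrial aspartate aminotransferase and the gene of highest level in the list, averaged 53.5 ± 1.09 FPKM with SFN+5-FU and 59.0 ± 5.15 FPKM with SFN, a difference of -0.14 (adjusted p = 0.206, and -0.21 with 0.00537 without SFN replicate 2).

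Of 4 tested genes linked to asparagine use, 1 rose and 0 fell with SFN+5-FU by limma, beside 38.3% and 28% of all tested genes. At an unadjusted p under 0.05 the counts were also 1 and 0. With SFN 0 rose and 1 fell (1 and 1 at an unadjusted p under 0.05), beside 27.5% and 22.5%. Leaving out SFN replicate 2 gave 1 and 2 with SFN+5-FU. It gave 1 and 1 with SFN, beside 30% and 26.9% of all tested genes. NARS1, the asparaginyl-tRNA synthetase, averaged 16.5 ± 1.38 FPKM with SFN+5-FU, 16.2 ± 0.587 FPKM with SFN and 14.1 ± 0.378 FPKM in control. It rose by 0.21 with SFN+5-FU (limma adjusted p = 0.0244), a call lost without SFN+5-FU replicate 2 (0.15, adjusted p = 0.104) and without control replicate 1 or 2 (adjusted p = 0.0808 and 0.0681). It was also lost with quantile normalization (0.069, adjusted p = 0.374) and with the GC and length correction (0.080, adjusted p = 0.255). ASRGL1, an asparaginase, averaged 1.93 ± 0.705 FPKM with SFN and 3.03 ± 0.124 FPKM in control, and fell by 0.49 with SFN (adjusted p = 0.0189), or by 0.67 without SFN replicate 2 (adjusted p = 8.74e-05). That call was lost without SFN replicate 1, SFN replicate 3 or control replicate 2 (adjusted p = 0.0514, 0.0602 and 0.0604).

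Among 24 other amino acid transporters in the table, 8 were tested. With SFN+5-FU 1 rose and 4 fell (median -0.32), beside 38.3% and 28% of all tested genes, and with SFN 2 rose and 3 fell (median -0.21), beside 27.5% and 22.5%. When SFN replicate 2 was left out, the counts were 3 and 5 with SFN+5-FU. With SFN they were then 3 and 4, beside 30% and 26.9% of all tested genes. SLC43A2, a facilitated leucine transporter (LAT4), was 4.72, 5.31 and 5.31 FPKM with SFN+5-FU, 2.21, 4.97 and 2.60 FPKM with SFN, and 1.29, 1.32 and 1.68 FPKM in control. Every treated library was above every control library. It rose by 1.33 with SFN+5-FU (limma adjusted p = 0.000397) and by 0.76 with SFN (adjusted p = 0.0116), or by 0.49 without SFN replicate 2 (adjusted p = 0.00222). SLC6A6, the taurine importer, averaged 10.28 ± 0.794 FPKM with SFN+5-FU and 22.5 ± 0.832 FPKM in control, a fall of 1.06 (adjusted p = 0.000133).

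SLC38A5, which like SLC38A2 carries glutamine, moved against SLC38A2. It was 34.97, 33.65 and 35.67 FPKM with SFN+5-FU, 58.76, 34.59 and 58.67 FPKM with SFN, and 28.51, 28.72 and 28.79 FPKM in control. SFN replicates 1 and 3 were highest, and SFN replicate 2 lay within the SFN+5-FU range. It rose by 0.76 with SFN (limma adjusted p = 0.00568) and by 1.01 without SFN replicate 2 (adjusted p = 2.99e-06). With SFN+5-FU the difference from control was 0.27 (adjusted p = 0.192, and 0.000224 without SFN replicate 2). Between SFN+5-FU and SFN 0 of these 8 transporters passed the limma threshold, with 2 higher and 4 lower at an unadjusted p under 0.05. By adjusted p without SFN replicate 2, 2 were higher and 5 lower, beside 29.8% and 21.4% of all tested genes. SLC38A5 was lower with SFN+5-FU than with SFN by 0.49 (adjusted p = 0.134), and by 0.74 without SFN replicate 2 (adjusted p = 1.35e-05).

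Of 16 tested genes of lysosomal amino acid transport and sensing to mTOR complex 1, 5 rose and 3 fell with SFN+5-FU (median 0.11), beside 38.3% and 28% of all tested genes. With SFN 3 rose and 3 fell (median -0.021), beside 27.5% and 22.5%. Leaving out SFN replicate 2 gave counts of 7 and 3 with SFN+5-FU. It gave 3 and 6 with SFN, beside 30% and 26.9% of all tested genes. RRAGA, a Rag GTPase that recruits the complex to lysosomes, was 31.68, 32.78 and 32.21 FPKM with SFN+5-FU, 59.91, 34.65 and 48.81 FPKM with SFN, and 97.16, 99.14 and 90.11 FPKM in control. No 2 groups overlapped. RRAGA fell by 1.54 with SFN+5-FU (limma adjusted p = 5.79e-05) and by 1.02 with SFN (adjusted p = 0.000818), or by 0.81 without SFN replicate 2. SLC66A1, a lysosomal exporter of cationic amino acids, averaged 18.6 ± 0.403 FPKM with SFN+5-FU and 8.75 ± 0.680 FPKM in control, and rose by 1.01 (adjusted p = 0.000340). Between SFN+5-FU and SFN 0 of the 16 passed the limma threshold, with 4 higher and 1 lower at an unadjusted p under 0.05. By adjusted p without SFN replicate 2, 6 were higher and 4 lower, beside 29.8% and 21.4% of all tested genes.

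The 5 genes whose log2(FPKM + 1) profile over the 9 libraries lay nearest to that of ASNS, of 6811 candidates with a symbol and a mean of at least 5 FPKM, were BTG2, APOE, GDF15, CD8B2 and MYO1D. Their root mean square difference from ASNS, each gene centred on its own mean, was 0.213, 0.235, 0.265, 0.267 and 0.307. BTG2, an antiproliferative gene, averaged 3.34 FPKM with SFN+5-FU, 2.73 FPKM with SFN and 13.7 FPKM in control. APOE, the apolipoprotein, averaged 34.5 FPKM with SFN+5-FU, 26.0 FPKM with SFN and 70.0 FPKM in control, with SFN replicate 2 at 39.71 FPKM against 22.27 and 15.94 FPKM in SFN replicates 1 and 3. GDF15, a stress cytokine, averaged 9.91 FPKM with SFN+5-FU, 8.68 FPKM with SFN and 29.6 FPKM in control. CD8B2 has a near-identical paralogue, CD8B, so its identity is uncertain. MYO1D, an unconventional myosin, averaged 30.7 FPKM with SFN+5-FU, 30.0 FPKM with SFN and 71.9 FPKM in control. The genes were picked for this likeness, so these levels are a description.

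**Figure D5:**
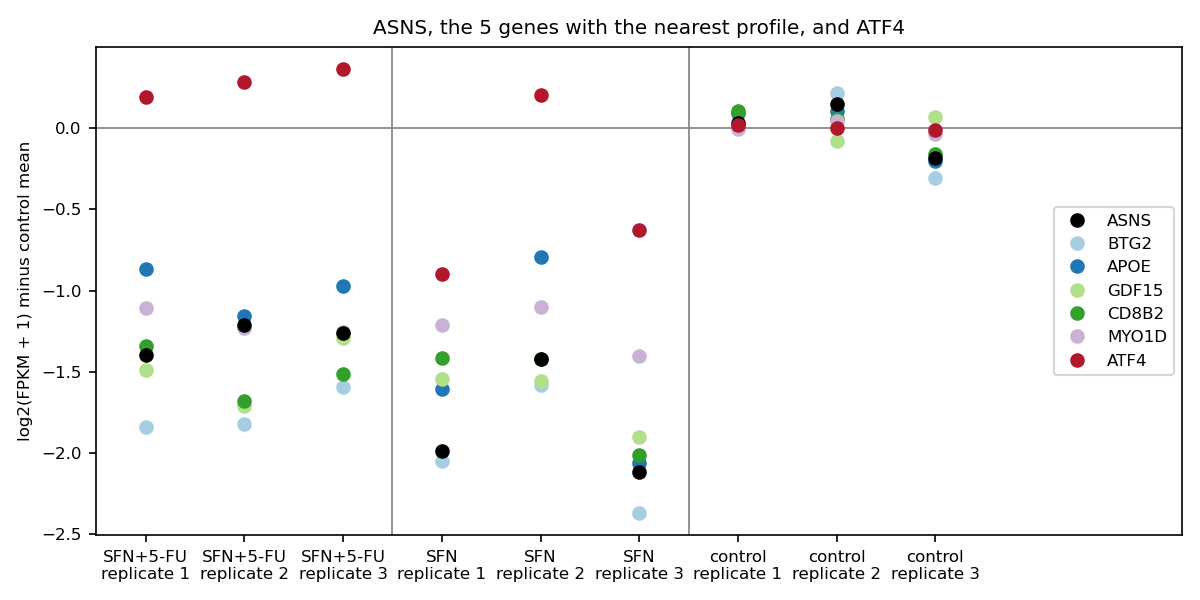
Difference of log2(FPKM + 1) from the control mean (y axis) in each of the 9 libraries (x axis) for ASNS, the 5 genes with the nearest profile, and ATF4. ASNS and its 5 nearest genes are below 0 in all 6 treated libraries, while ATF4 is above 0 in the SFN+5-FU libraries and SFN replicate 2 and below 0 in SFN replicates 1 and 3.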

How the data were processed

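The deposited values are gene-level FPKM made by the authors; the submitters' processing notes name fastp, StringTie and edgeR, without versions, and per the labels' protocols the libraries were poly(A)-selected, paired-end and made with dUTP. Of the aligner, genome build, annotation and strand setting, the sources used here say nothing. FPKM has 2 decimals, with 0.01 the smallest value above 0 in the table, so depth was not recovered. From the deposited FPKM, genes averaging at least 1 were kept, log2(FPKM + 1) was taken, and 1 fit of limma 3.58.1 in R 4.3.3, with a trend of variance on mean, 6 residual degrees of freedom and 3.2 prior ones, gave 3 two-sided comparisons, adjusted by Benjamini-Hochberg over 12662 genes. Groups follow the sample titles. The name table matched 41002 of 41041 identifiers and gave 29784 symbols.

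The 10 genes, the gene lists and the tests were chosen with earlier results of these data known. Besides the 10 genes, ATF4 and SLC7A6, the text names from each list and comparison the 2 called genes with the largest change, or the gene of highest level where none was called, and the 5 nearest to ASNS. Other names (the cell markers, ALDH18A1, GLUD1, DDIT3 and further called genes of the ATF4 pathway list) come from counts and were chosen after their values were seen. Some items are not reported here.

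No pairing by replicate number was used: deviations of same-numbered libraries from the group means correlated at -0.143 to 0.107 in 9 pairs, with 1 above 0.1, and at -0.247 to 0.182 in 18 pairs with different numbers. The 21 alternatives changed the filter, the pseudocount, the scaling, the variance model, the block, the libraries or a correction for GC content and length (GENCODE release 29, 98.8% of tested genes). Promoters are RefSeq, GRCh38.p14. Annotated overlaps between genes come from GENCODE release 29. Figures were drawn with matplotlib 3.10.9 in Python 3.11.15.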

Additional observations from a re-analysis of the deposited data

How the results depend on the processing

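In SFN+5-FU against control, ASNS, SLC7A5, SLC3A2, SLC38A2, SLC1A4 and SLC1A5 kept direction and call in all 21 alternatives, with ASNS between -1.44 and -1.04, SLC7A5 between -1.87 and -1.53 and SLC3A2 between 1.00 and 1.17. SLC6A9, which passed the filter through control, lay between -2.98 and -0.66 in 20, and has no value with a mean FPKM of at least 5. In SFN against control, ASNS, SLC7A5, SLC38A2 and SLC1A4 kept both in all 21. With a mean FPKM of at least 5 fewer genes were tested, and 4903 genes were called for SFN+5-FU and 3888 for SFN against control, beside 8387 and 6333. Leaving out 1 library gave 7287 to 9461 and 4845 to 7200 genes called, 7 to 9 and 5 to 7 of the genes described here, and a difference from control in the mean log2 ratio of SLC7A5 to SLC3A2 between -2.99 and -2.95 and between -1.80 and -0.65. For SFN+5-FU against SFN, 1 gene was called, 7432 with library weights (4225 higher and 3207 lower), 0 with the 6 libraries compared alone, and 0 to 6478 without 1 library, the highest without SFN replicate 2. Of the 9 genes described here 0 were called, 8 with library weights (3 higher and 5 lower) and 0 to 8 without 1 library, and the difference in mean log2 ratio lay between -2.32 and -1.17. The sign turned for SLC7A1 with quantile normalization (-0.064 for SFN+5-FU against control), for SLC38A1 in SFN against control with library weights (0.17) and without SFN replicate 2 (-0.24 to 0.077 without 1 library), and for SLC3A2 there without SFN replicate 2 (-0.034 to 0.54). For SFN+5-FU against SFN, SLC7A1 (-0.0065) turned to 0.020 with TPM rescaling and 0.056 with the GC and length correction, and lay between -0.042 and 0.032 without 1 library, positive without SFN+5-FU replicate 1 or SFN replicate 3. NARS1 (0.024) turned there to -0.00075 with median-of-ratios scaling, -0.027 with quantile normalization and -0.020 with the GC and length correction, and lay between -0.038 and 0.071 without 1 library, negative without SFN+5-FU replicate 2 or SFN replicate 1. SLC1A5 in SFN against control was called with TPM rescaling, library weights, the replicate block and without SFN replicate 1. PPP1R15A in that comparison lost its call with no filter, with the 6 libraries compared alone and without any 1 control library. The causes were not tested. FPKM without fragment counts gives no counting error for any gene.

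Replicate numbers paired no samples by the check used, and with a replicate block 8151, 6038 and 0 genes were called for SFN+5-FU against control, SFN against control and SFN+5-FU against SFN, and 8, 6 and 0 of the genes described here.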
